A study of Bos taurus with 6 samples.

Results

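LCORL, NCAPG and PLAG1 are among the genes that cattle breeders know best, because the chromosome segments that hold them carry common differences in stature, carcass weight and birth weight. The expression of 10 genes from such segments, or related to them, was examined in bovine preadipocytes. They were LCORL and its paralog LCOR, NCAPG, DCAF16 and FAM184B beside LCORL, PLAG1 with CHCHD7 and LYN, the growth gene HMGA2 and the muscle growth inhibitor MSTN. The members were taken as genes of the LCORL and PLAG1 segments, a paralog of LCORL and other known growth genes, and LCORL itself was selected on its higher FPKM with the bta-miR-484 agomir in these same libraries, so its difference is described here without a test. All 10 genes had a row among the 23475 genes of the table, and 9 of the 10 were abundant enough to enter the comparison of 12422 genes.

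The RNA sequencing compared 3 libraries of cells that received bta-miR-484 agomir with 3 libraries of cells that received agomir NC, each collected after 48 h. An agomir is a chemically modified RNA duplex that mimics a miRNA, and agomir NC is its negative control, so both groups went through transfection. The cells were primary preadipocytes that the study isolated from the subcutaneous fat of 3 premature calves and grew in serum-containing medium. No source used here says whether the libraries of a group came from separate calves or from parallel cultures, so the p-values below measure only the spread between these libraries, which may be technical. Each value is an FPKM, that is, fragments scaled to transcript length and to the mapped fragments of the library, which allows levels of different genes to be compared per length. Summed over genes, the libraries held 365977 to 379361 FPKM, and read numbers and sequencing depth are unknown.

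The cells carried the RNA of mesenchymal preadipocytes. All 9 preadipocyte markers were detected, with COL1A1, which encodes a collagen chain, at a mean of 5979 FPKM over the 6 libraries. PDGFRA, a receptor of fat progenitors, lay between 161.9 and 172.1 FPKM. The label calls the cells adipocytes, but the secreted products of mature fat cells were near 0, with ADIPOQ (adiponectin) between 0.0763 and 0.197 FPKM and LEP (leptin) listed at 0 in 4 libraries. Other adipocyte markers were low but present, with LPL at 3.73, FABP4 at 2.39 and PLIN1 at 1.23 FPKM on average. The adipogenic regulator PPARG was at 3.99, 3.69 and 3.91 FPKM (agomir) against 3.39, 3.34 and 2.96 FPKM (agomir NC). Over all 12422 genes tested, 6.63% were higher and 4.31% lower with the agomir at an unadjusted p of 0.05 in limma. Among the preadipocyte markers 2 of 9 had an unadjusted p under 0.05 in limma, both lower with the agomir. These were NT5E, at 71.7, 70.6 and 77.5 FPKM against 83.1, 89.2 and 89.4 FPKM, and the matrix proteoglycan gene DCN, with log2 fold changes of -0.25 and -0.12. Adjusted over all genes tested, their p in limma was 0.209 and 0.376. After quantile normalization the DCN value was 0, but that method assigns values by rank and can level genes this abundant. With median-ratio scaling the DCN value was -0.14, and without agomir NC replicate 3 it was -0.089. In bulk RNA, fewer cells of a type and less RNA per cell cannot be told apart. Muscle markers were absent or nearly so, with MYOD1, MYOG and CKM listed at 0 in every library and DES the most abundant at a mean of 0.294 FPKM. Of the adipocyte markers 5 of 7 were tested, and at an unadjusted p of 0.05 1 was higher (PPARG) and 1 lower (FABP4, log2 fold change -0.49). Adjusted over all genes tested, p in limma was 0.407 for PPARG and 0.363 for FABP4. The FABP4 groups overlapped, and its log2 fold change lay between -0.64 and -0.35 with a library left out. Of 5 endothelial markers 2 were tested, 0 of them with an unadjusted p under 0.05 in limma, and 0 of 4 epithelial markers were abundant enough. VWF, the most abundant endothelial marker, was at a mean of 3.39 FPKM. Among 10 housekeeping genes 1 was higher (SDHA, 0.083) and 1 lower (GAPDH, -0.13) at an unadjusted p of 0.05. The log2 fold changes of the 10 ran from -0.595 to 0.093, and the lowest was not under that p. The GAPDH value was -0.018 after quantile normalization and -0.15 with median-ratio scaling.

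LCORL and LCOR encode DNA-binding corepressor proteins. Longer products of both genes are accessory subunits of PRC2, the Polycomb complex that methylates histone H3 at silenced genes. In cattle, as in horses, sheep and dogs, variants at LCORL go with adult body size.

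In the agomir libraries LCORL stood at 3.06, 3.17 and 3.46 FPKM, and in those of agomir NC at 1.37, 2.2999 and 2.31 FPKM. Every agomir library lay above every agomir NC library, and agomir NC replicate 1 lay well below the other agomir NC libraries. Means and SD were 3.23 ± 0.208 and 1.99 ± 0.537 FPKM (n = 3 each). The ratio of the means was 1.62. On the log2(FPKM + 0.5) scale the log2 fold change was 0.60, and this scale understates changes at low FPKM. Agomir NC replicate 1 carried part of this difference, since without it the ratio of means was 1.40 and the log2 fold change 0.41. With any other library left out, the ratio lay between 1.56 and 1.76. These values are those for which LCORL was chosen.

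**Figure D1:**
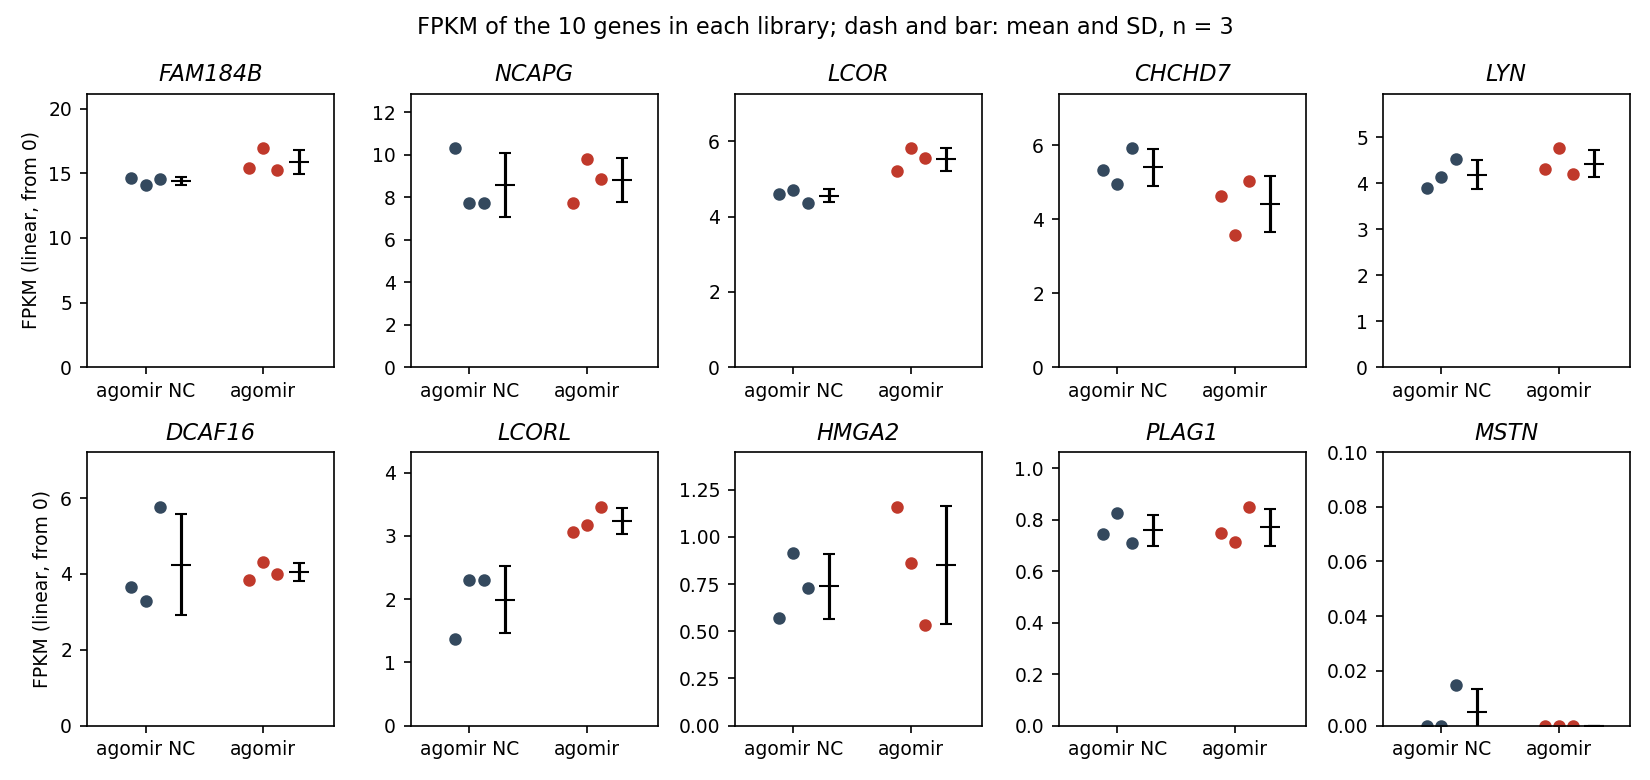
FPKM (vertical axes, linear from 0, each gene on its own scale) of the 10 genes in the 3 agomir NC libraries and the 3 agomir libraries, with points for libraries and a dash with bar for mean and SD. The groups part without overlap in LCORL, LCOR and FAM184B, and MSTN is listed at 0 in 5 of the 6 libraries.

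LCOR lies on another chromosome, and its agomir libraries were likewise the higher ones. It was at 5.21, 5.81 and 5.54 FPKM (agomir) against 4.59, 4.71 and 4.37 FPKM (agomir NC), again with no overlap between the groups. Its mean was 5.52 ± 0.301 FPKM in the former and 4.56 ± 0.173 FPKM in the latter (SD, n = 3 each). For LCOR the log2 fold change came to 0.25 (standard error 0.079, 95% interval from 0.074 to 0.43), with an unadjusted p of 0.0104 in limma. Adjusted over all genes tested by the Benjamini-Hochberg method, limma's p was 0.334, so the gene did not pass. By an exact two-sided permutation test p was 0.1, which is the smallest value possible with 3 libraries per group. LCOR was more abundant per length than LCORL in all 6 libraries. Its FPKM was 1.71, 1.83 and 1.601 times that of LCORL in the agomir libraries and 3.34, 2.05 and 1.89 times in the agomir NC libraries.

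Among the 8 tested members other than LCORL, 0 passed an adjusted p of 0.05 in limma, where 0.00805% of all genes tested did, which is a single gene outside this set (TRAPPC4). That gene did not pass without a filter, without a variance trend, with a replicate block or in 5 of 6 fits with a library left out. At an unadjusted p of 0.05, 1 of the 8 was higher with the agomir (LCOR) and 1 was lower (CHCHD7). Over all 12422 genes, 6.63% were higher and 4.31% lower by that measure, an excess that was not seen after median-ratio scaling (673 genes higher and 688 lower). The agomir libraries all lay above the agomir NC libraries in 2 of the 8 (LCOR and FAM184B), against 10.9% of all genes tested, and they all lay below in 0 of the 8, against 6.36%. With so few genes, a single gene moves such a share by more than any of these background percentages. The median log2 fold change of the 8 was 0.055, beside 0.013 over all genes tested.

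Next to LCORL on chromosome 6, in the order of the RefSeq gene table of ARS-UCD2.0, lie NCAPG and then FAM184B. DCAF16 lies within the span of NCAPG, and the spans of NCAPG and LCORL overlap at their ends. No source used here says whether reads were assigned by strand, so fragments from the shared stretches cannot be told apart.

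FAM184B, which encodes a coiled-coil protein of little-known function, was the most abundant of the 10 genes. It was at 15.4, 16.9 and 15.2 FPKM (agomir) against 14.6, 14.1 and 14.5 FPKM (agomir NC). The groups did not overlap, but the difference was small, with a log2 fold change of 0.13 (95% interval from -0.0024 to 0.27; adjusted p = 0.466 in limma). Without agomir replicate 2 it was 0.087 (adjusted p = 0.761). With the agomir the ratio of means was 1.10 for FAM184B, beside 1.62 for LCORL.

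NCAPG encodes a subunit of condensin I, the ring-shaped complex that compacts chromosomes for mitosis. It was at 7.72, 9.80 and 8.85 FPKM (agomir) against 10.3, 7.72 and 7.703 FPKM (agomir NC). The groups overlapped, and the highest library was agomir NC replicate 1. The log2 fold change was 0.040 (95% interval from -0.23 to 0.31, adjusted p = 0.936 in limma), and between -0.037 and 0.17 with a library left out.

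DCAF16 encodes a substrate receptor of the CUL4-DDB1 ubiquitin ligase. It was at 3.83, 4.302 and 4.003 FPKM (agomir) against 3.67, 3.295 and 5.77 FPKM (agomir NC). The agomir libraries lay within the range of the agomir NC libraries, whose spread came from replicate 3. The log2 fold change was -0.028 (95% interval from -0.399 to 0.34). It was 0.19 without agomir NC replicate 3 and -0.17 without agomir NC replicate 2. The adjusted p in limma was 0.97 with all libraries, 0.613 without the former and 0.759 without the latter.

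Further out on chromosome 6, the 5 nearest protein-coding genes on either side of LCORL that are not members gave 6 genes abundant enough to test. Of these, 1 was higher and 2 were lower at an unadjusted p of 0.05, and 0 passed an adjusted p of 0.05 in limma. Over all genes tested, 6.63% were higher and 4.31% lower at that unadjusted p. MED28, a Mediator subunit gene, was at 43.5, 42.5 and 45.9 FPKM (agomir) against 40.7, 39.3 and 39.1 FPKM (agomir NC), a log2 fold change of 0.15. LAP3, an aminopeptidase gene, was at 66.5, 69.2 and 67.4 FPKM against 71.2, 75.5 and 78.9 FPKM, a log2 fold change of -0.15. SPP1, which encodes the secreted phosphoprotein osteopontin, was at 3.24, 3.21 and 4.02 FPKM against 4.39, 4.29 and 4.33 FPKM, a log2 fold change of -0.28. In these 3 genes the groups did not overlap, and the signs differed within the neighbourhood. Over all genes tested, the agomir libraries all lay above the agomir NC libraries in 10.9% and all below in 6.36%. The adjusted p in limma was 0.347 for MED28, 0.344 for LAP3 and 0.370 for SPP1.

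**Figure D2:**
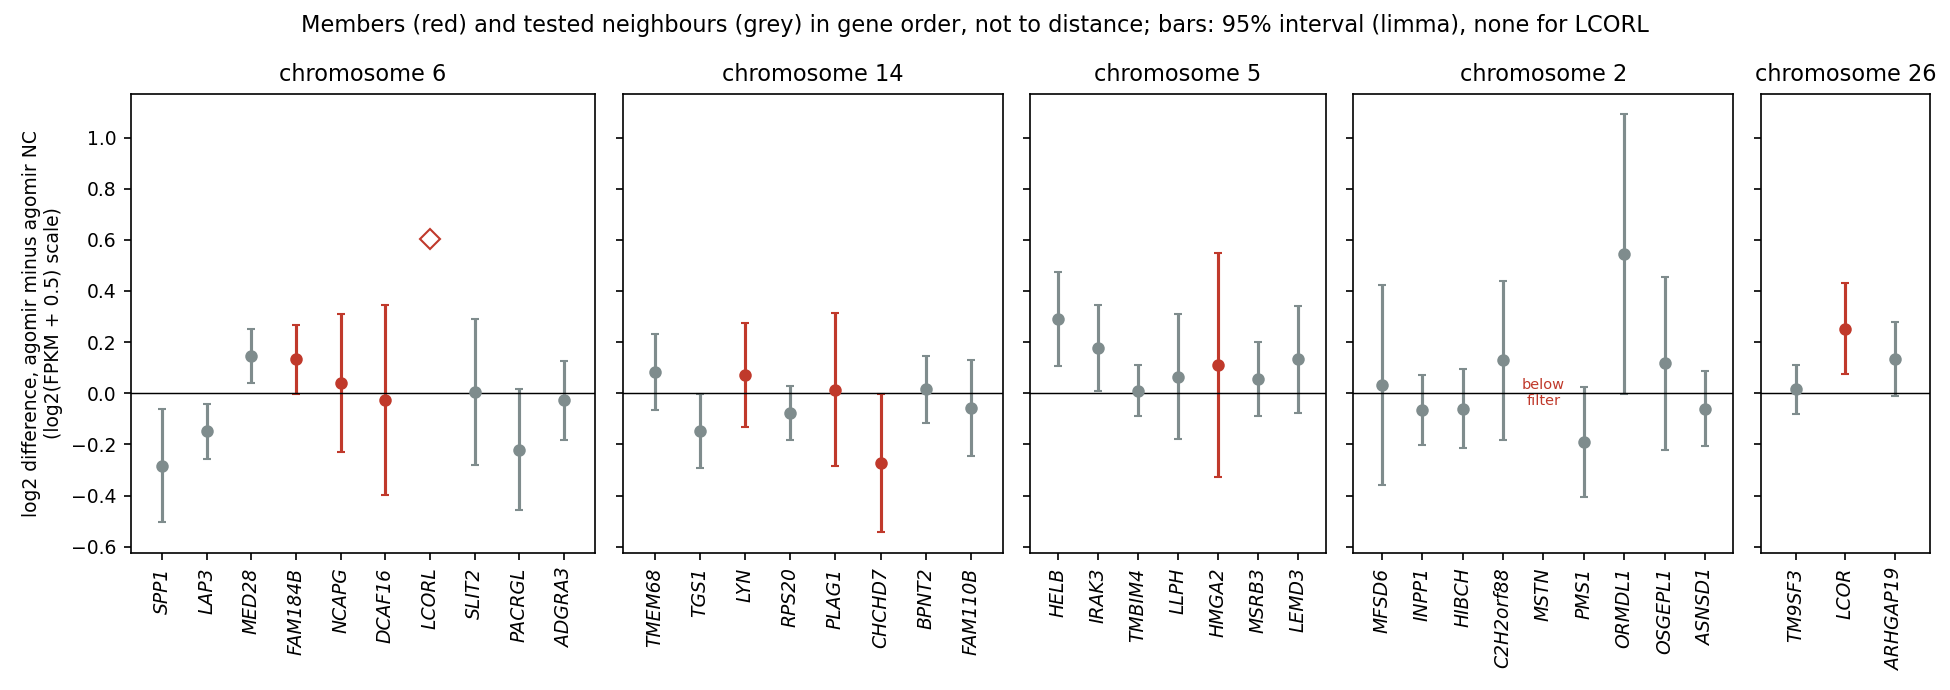
Log2 fold change of agomir against agomir NC on the log2(FPKM + 0.5) scale (vertical axis) for members (red) and tested neighbours (grey) in the gene order of each chromosome, not drawn to distance. Bars are 95% intervals from limma, with none for LCORL (open diamond, 0.60), whose neighbours lie between -0.28 and 0.15.

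The chromosome 14 segment holds PLAG1, a zinc finger transcription factor of fetal growth that is known to switch on IGF2. PLAG1 was low, at 0.748, 0.715 and 0.851 FPKM (agomir) against 0.743, 0.825 and 0.708 FPKM (agomir NC). The groups overlapped and differed by less than the spread between replicates, with means of 0.771 ± 0.071 and 0.759 ± 0.060 FPKM (SD, n = 3 each). This gave a log2 fold change of 0.014 (95% interval from -0.29 to 0.31, adjusted p = 0.983 in limma), and -0.031 to 0.051 with a library left out.

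CHCHD7, the gene next to PLAG1, encodes a small protein of the mitochondrial intermembrane space. It was at 4.62, 3.58 and 5.03 FPKM (agomir) against 5.34, 4.94 and 5.91 FPKM (agomir NC). The agomir libraries tended to lie lower, but agomir replicate 3 lay above agomir NC replicate 2. The log2 fold change was -0.27 (standard error 0.12, 95% interval from -0.54 to -0.0017), with an unadjusted p of 0.0488 in limma and an adjusted p of 0.454. By the exact two-sided permutation test p was 0.2. Without agomir replicate 2, the lowest library, the CHCHD7 difference was -0.14 on the log2 scale, with an unadjusted p of 0.191 from limma.

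LYN, a SRC family kinase gene best known from blood cells, lies on the other side of PLAG1. It was at 4.305, 4.76 and 4.21 FPKM (agomir) against 3.90, 4.14 and 4.54 FPKM (agomir NC), with overlapping groups and a log2 fold change of 0.071 (95% interval from -0.13 to 0.27, adjusted p = 0.817 in limma), which lay between 0.022 and 0.12 with a library left out. Defining leukocyte markers were near 0, with PTPRC at most at 0.119 FPKM and the myeloid factor SPI1 listed at 0 in 4 libraries. CD14, at a mean of 6.27 FPKM, was the most abundant of the 8 leukocyte markers. Summed, they gave 7.92 ± 0.669 FPKM (agomir) against 8.09 ± 0.169 FPKM (agomir NC; SD, n = 3 each). Of the 8 leukocyte markers, 2 were abundant enough to test and 0 had an unadjusted p under 0.05 in limma.

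Around PLAG1, 5 of the 10 nearest genes that are not members were abundant enough to test. The ribosomal protein gene RPS20, between LYN and PLAG1, was the most abundant at a mean of 993.9 FPKM, and its log2 fold change was -0.076 (95% interval from -0.18 to 0.030). The gene with an unadjusted p under 0.05 was TGS1, which encodes an RNA cap methyltransferase and is named because its values were seen, at 7.27, 7.58 and 7.66 FPKM against 8.38, 8.17 and 8.54 FPKM. MOS, SDR16C5, SDR16C6 and XKR4 were listed at 0 in every library.

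HMGA2 encodes an architectural chromatin protein of embryonic and proliferating mesenchymal cells and is a classical target of let-7. It was at 1.16, 0.8596 and 0.536 FPKM (agomir) against 0.569, 0.916 and 0.731 FPKM (agomir NC). The groups overlapped fully, and the agomir libraries held both the highest and the lowest value. The log2 fold change was 0.11 (95% interval from -0.33 to 0.55, adjusted p = 0.881 in limma). It was -0.052 without agomir replicate 1 but 0.29 without agomir replicate 3.

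Of the 6 tested neighbours of HMGA2 on chromosome 5, with log2 fold changes between 0.0096 and 0.29, 2 had an unadjusted p under 0.05 in limma. Both were higher with the agomir, as were 6.63% of all genes tested by that measure. HELB, a DNA helicase gene, was at 4.32, 4.59 and 4.36 FPKM (agomir) against 3.65, 3.35 and 3.57 FPKM (agomir NC), with an adjusted p of 0.310 in limma. IRAK3, which encodes a brake on interleukin receptor signalling and is likewise named because its values were seen, was at 15.4, 16.3 and 17.4 FPKM against 15.2, 15.01 and 13.1 FPKM.

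MSTN encodes myostatin, the secreted inhibitor of muscle growth whose loss gives double-muscled cattle. It was listed at 0 in all 3 agomir libraries and in 2 agomir NC libraries, and at 0.0147 FPKM in agomir NC replicate 3, so it was not tested. Its defining tissue was not represented either, as the summed level of the 7 muscle markers in the table was 0.415 ± 0.197 FPKM (agomir) against 0.362 ± 0.213 FPKM (agomir NC; SD, n = 3 each). Of the 10 nearest genes, 8 were abundant enough to test and 0 had an unadjusted p under 0.05 in limma. Around LCOR on chromosome 26, 2 neighbours could be tested, and 0 of them had an unadjusted p under 0.05 in limma.

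The levels of the 10 genes spanned a wide range per length. FAM184B was highest, at a mean of 15.1 FPKM over the 6 libraries, which was above 68.1% of the genes tested. NCAPG followed at 8.68 FPKM, and neither its range nor that of FAM184B overlapped with the next gene down. LCOR (5.04 FPKM), CHCHD7 (4.902 FPKM), LYN (4.31 FPKM) and DCAF16 (4.14 FPKM) formed a group in which the ranges of neighbours in the order overlapped. LCORL was below DCAF16 in all 6 libraries, at a mean of 2.61 FPKM, although their ranges over libraries overlapped. HMGA2 (0.795 FPKM) and PLAG1 (0.765 FPKM) could not be told apart by level, and both lay just above the mean of 0.5 FPKM needed to be tested. LCORL was above both in every library.

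Likeness to LCORL was ranked for 11251 genes by the root-mean-square difference between log2 profiles centred on each gene's mean, over the 6 libraries. Among these, the genes most like LCORL were FICD (0.13), TNFRSF1B (0.16), STRADB (0.16), ZDHHC23 (0.16) and TRAPPC4 (0.17). FICD, which encodes an enzyme that modifies the chaperone BiP, was at 2.95, 3.14 and 2.82 FPKM (agomir) against 1.57, 2.24 and 2.51 FPKM (agomir NC), so it shared the low value in agomir NC replicate 1. Genes found in this way are high with the agomir because LCORL is, so no test is given.

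For the list counts from here on, 6.63% of all genes tested were higher and 4.31% lower at an unadjusted p of 0.05 in limma. PRC2 was represented by 12 genes, of which 11 were tested. Of these, 0 had an unadjusted p under 0.05 in limma, and 8 had log2 fold changes above 0, with a median of 0.021. The histone-binding subunit genes RBBP7 and RBBP4 were the most abundant, at means of 84.2 and 68.7 FPKM. The core genes EZH2, EED and SUZ12 overlapped between the groups. JARID2, an accessory subunit gene named because its values were seen, was at 2.81, 2.903 and 2.75 FPKM (agomir) against 1.81, 2.71 and 2.31 FPKM (agomir NC), with an adjusted p of 0.477 in limma.

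LCOR represses transcription through partner proteins. Of the 9 partner genes tested, 1 was higher and 1 lower at an unadjusted p of 0.05, and the median log2 fold change was 0.012. The corepressor gene NCOR1 was at 24.5, 25.7 and 24.7 FPKM (agomir) against 23.9, 22.6 and 20.1 FPKM (agomir NC). The deacetylase gene HDAC3 was at 23.2, 23.8 and 24.02 FPKM against 25.02, 26.8 and 26.2 FPKM. Both had groups that did not overlap, with adjusted p of 0.406 and 0.398 in limma. HDAC1, the most abundant at 50.7 FPKM, had a log2 fold change of -0.0011.

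Condensin I and condensin II share SMC subunits with which NCAPG works. All 7 other subunit genes were tested, 0 had an unadjusted p under 0.05 in limma, and their median log2 fold change was -0.00029. SMC4 and NCAPH2 were the most abundant, at 14.96 and 12.3 FPKM. Of 10 mitosis markers, 0 were higher and 1 was lower at an unadjusted p of 0.05, with a median log2 fold change of -0.047. That gene was CCNB2, which encodes a mitotic cyclin, at 7.599, 6.67 and 6.63 FPKM (agomir) against 8.51, 7.521 and 8.565 FPKM (agomir NC), with an adjusted p of 0.396 in limma. CCNB1 and TOP2A, the most abundant markers, lay at 14.9 and 13.7 FPKM. Agomir NC replicate 1, the library with the most NCAPG and the least LCORL, had the highest level of 5 of the 10 mitosis markers and the highest summed level, 103.8 FPKM, against 83.8 to 95.1 FPKM in the other libraries. Agomir replicate 3 had the highest level of 4 of the 10.

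The CUL4-DDB1 ligase, for which DCAF16 is a receptor, was represented by 15 genes, all of them tested. At an unadjusted p of 0.05, 2 were higher and 0 lower. The median log2 fold change was 0.036. DCAF15, known as the receptor that aryl sulfonamide drugs recruit, was at 10.9, 10.8 and 9.58 FPKM (agomir) against 9.14, 8.56 and 8.04 FPKM (agomir NC). DCAF10 was at 3.68, 3.67 and 3.49 FPKM against 3.02, 2.92 and 3.17 FPKM. Their groups did not overlap, and the adjusted p was 0.310 and 0.406 in limma. The core genes RBX1 (64.9 FPKM) and DDB1 (60.1 FPKM) had log2 fold changes of 0.036 and 0.0088.

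**Figure D3:**
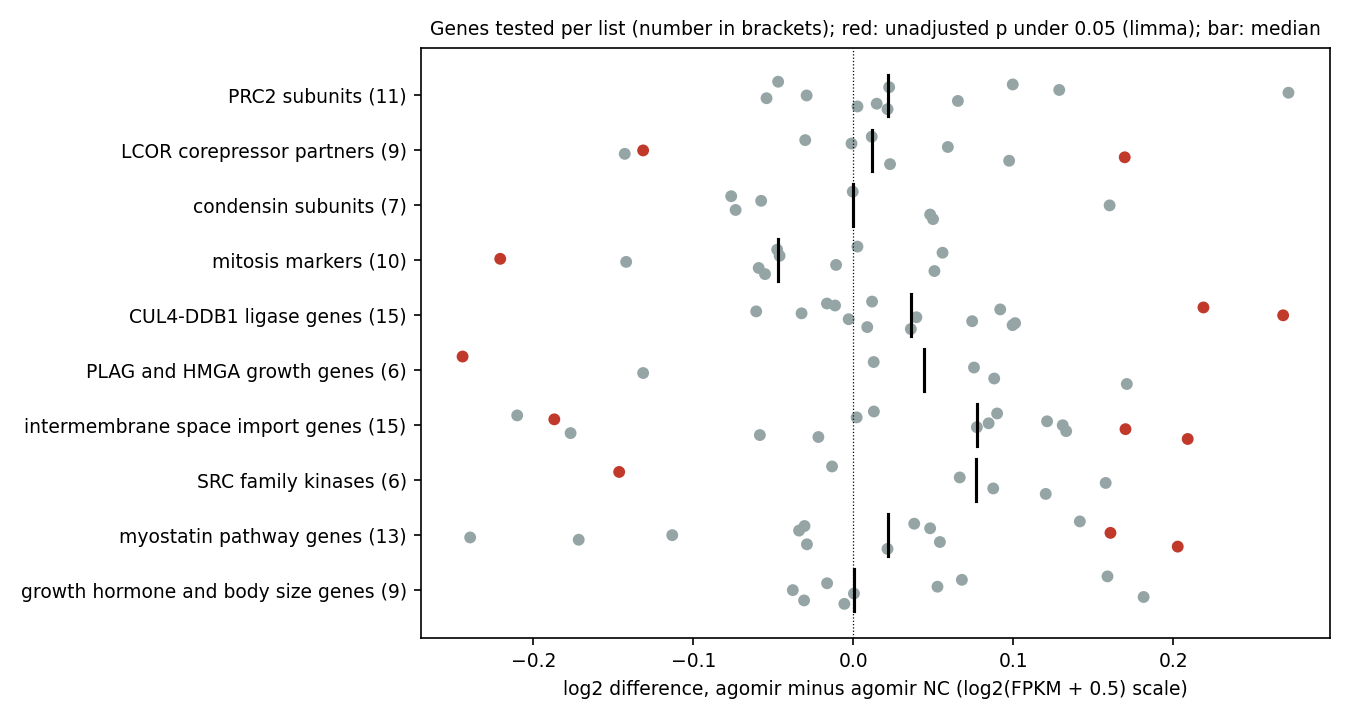
Log2 fold change on the log2(FPKM + 0.5) scale (horizontal axis) of each tested gene in 10 lists of genes related to the members, with the number tested in brackets, the median as a bar and genes with an unadjusted p under 0.05 in red. List medians lie between -0.047 and 0.077, and 0 genes pass an adjusted p of 0.05.

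Genes of the PLAG and HMGA families and their known growth targets gave 6 tested genes of 10. HMGA1, the close relative of HMGA2, was at 8.23, 8.09 and 7.97 FPKM (agomir) against 8.65, 10.2 and 10.3 FPKM (agomir NC). Its groups did not overlap, and its log2 fold change was -0.24 with an adjusted p of 0.344 in limma. It was the 1 gene of the list with an unadjusted p under 0.05. PLAGL1, a relative of PLAG1, was far more abundant than PLAG1 at 27.2 FPKM, and its log2 fold change was 0.088. IGF1R, the receptor of insulin-like growth factors, was at 27.2 FPKM as well. IGF2 itself was at most at 0.126 FPKM, and LIN28A and LIN28B, which block let-7 maturation, were listed at 0 in every library.

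Genes that import or resemble CHCHD7 in the mitochondrial intermembrane space were all tested, 15 of 15. At an unadjusted p of 0.05, 2 were higher and 1 was lower, and the median log2 fold change was 0.077, above 0 where that of CHCHD7 was below. CHCHD3, a subunit gene of the cristae-shaping MICOS complex, was at 31.9, 32.7 and 32.8 FPKM (agomir) against 36.9, 36.3 and 37.8 FPKM (agomir NC), with no overlap and a log2 fold change of -0.19 (adjusted p = 0.257 in limma). GFER, which encodes the oxidase of this import route, was at 19.3, 16.02 and 17.3 FPKM against 16.3, 14.3 and 14.7 FPKM. CMC2 was at 38.9, 35.8 and 39.6 FPKM against 36.2, 30.01 and 35.5 FPKM, and in both genes 1 agomir library lay within the agomir NC range. CHCHD2, the most abundant at 75.3 FPKM, had a log2 fold change of 0.0022.

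Of 9 genes for SRC family kinases and their regulators, 6 were tested, and 1 had an unadjusted p under 0.05. FYN, a widely expressed relative of LYN, was at 36.8, 40.1 and 39.01 FPKM (agomir) against 41.996, 44.4 and 42.05 FPKM (agomir NC). Its log2 fold change was -0.15 (adjusted p = 0.362 in limma), while that of LYN was 0.071. CSK, the kinase that restrains the family, was at a mean of 25.8 FPKM with a log2 fold change of -0.013. The lymphocyte kinase genes LCK and BLK were listed at 0 in every library.

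Although MSTN was near 0, most genes of the route by which cells respond to myostatin were expressed. The receptor gene ACVR2B, at a mean of 0.21 FPKM, and 4 others were too low to test, TLL1 being listed at 0 in every library. Of 18 genes, 13 were tested, 2 were higher and 0 lower at an unadjusted p of 0.05, and the median log2 fold change was 0.021. SMAD7, the inhibitory SMAD that the pathway itself induces, was at 6.82, 7.703 and 6.725 FPKM (agomir) against 6.175, 6.28 and 5.79 FPKM (agomir NC). FURIN, which encodes a protease that cleaves pro-myostatin, was at 18.9, 19.5 and 19.9 FPKM against 17.9, 17.8 and 16.3 FPKM. Their groups did not overlap, and the adjusted p was 0.403 and 0.376 in limma. BMP1, which encodes another protease that frees myostatin, was the most abundant at 129.2 FPKM, followed by SMAD3 at 33.1 FPKM, with log2 fold changes of -0.030 and 0.054.

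Growth hormone and other body size genes gave 9 tested genes of 10, of which 0 had an unadjusted p under 0.05 in limma. Their median log2 fold change was 0.00047. LASP1 and IGF2R were the most abundant, at 188.4 and 90.4 FPKM. The growth hormone receptor gene GHR was at 4.16, 4.48 and 3.22 FPKM (agomir) against 3.13, 3.95 and 3.33 FPKM (agomir NC), with overlapping groups, and IGF1 was at most at 0.035 FPKM.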

How the data were processed

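Total RNA was sequenced on an Illumina platform. Per the labels, the submitters' processing notes name fastp, HISAT2, StringTie and the build ARS-UCD1.2, without versions. The authors deposited FPKM per gene and library. Low FPKM ratios between libraries did not fall into steps (at most 4 of 439 low genes shared a bin 0.002 wide on the log2 scale), so reads were not recovered, depth is unknown and no counting error can be given. No 2 libraries were identical.

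Genes averaging 0.5 FPKM or more over 6 libraries were compared as log2(FPKM + 0.5) with limma (version 3.58.1, R 4.3.3), two-sided, with a variance trend, no replicate block and Benjamini-Hochberg adjustment over all 12422 genes. The fit was tested on simulated data with independent normal noise for each gene, so effects shared by a library were not covered. Members, lists and tests were chosen with earlier results of these data known. The genes named were the members, up to 2 of the most abundant of a list, up to 4 of a list with the lowest unadjusted p under 0.05, any gene past an adjusted p of 0.05, and the 5 profiles nearest LCORL. Others are marked as named because their values were seen, or given as levels. Marker lists are named by their defining or most abundant genes. Gene order came from RefSeq (ARS-UCD2.0). Alternatives were the replicate block, array weights, a fit without variance trend, quantile normalization, scaling by median ratios, removal of a trend with gene span, a filter at 1 FPKM or none, pseudocounts of 0.1 or 1, and each library left out. Sequences were not used here.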

Additional observations from a re-analysis of the deposited data

How the results depend on the processing

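Over 16 alternatives, 0 of the members other than LCORL passed an adjusted p of 0.05 in limma, and LCOR kept an unadjusted p under 0.05 in all 16, with log2 fold changes between 0.21 and 0.29 and adjusted p between 0.322 and 0.597. LCORL ranged from 0.41 to 0.70. The count of these members with an unadjusted p under 0.05 in limma was 2, but 1 with array weights, 1 without a variance trend, and between 1 and 3 with a library left out. CHCHD7 kept that p in 9 alternatives. FAM184B gained it in 2, without a filter (0.0400, where CHCHD7 lost it at 0.0789) and without agomir replicate 3 (0.0491). The count of all genes past an adjusted p of 0.05 was 1, but 0 without a filter, 0 without a variance trend, 0 with the replicate block (1604, 1249 and 1260 at an unadjusted p of 0.05), and between 0 and 2 with a library left out, where TRAPPC4 passed in 1 of 6 fits and the other calls were other genes. Deviations of libraries sharing a replicate number correlated at -0.051, 0.053 and 0.039, so numbers were read as labels. Small log2 fold changes turned direction: NCAPG (-0.037 to 0.17 with a library left out), DCAF16 (0.0041 with the gene span correction; -0.17 to 0.19 with a library left out), PLAG1 (-0.011 with that correction; -0.031 to 0.051) and HMGA2 (-0.052 to 0.29). In all, 116 of 126 member values kept their direction, but part of these were fixed in advance. The replicate block, the other filters and the fit without variance trend leave log2 fold changes unchanged. Quantile normalization, which assigns values by rank, set DCN to 0 and GAPDH to -0.018, while median-ratio scaling gave -0.14 and -0.15. NCOR1 was 0.10 without agomir NC replicate 3 and CMC2 0.086 without agomir NC replicate 2. At an unadjusted p of 0.05, 824 genes were higher and 535 lower, against 673 and 688 with median-ratio scaling, 654 and 660 with the gene span correction, and 696 and 629 with quantile normalization.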
